A study of Mus musculus with 26 samples.

Results

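The 9 genes described here are Cd8a, Cd8b1, Prf1, Gzma, Gzmb, Nkg7, Klrd1, Klrk1 and Eomes, out of 24848 genes listed for each library. They were chosen by their measured levels, because transcripts of CD8 T cells and natural killer (NK) cells differed between knockout and control regulatory T cells (Treg) of the central nervous system (CNS), so every value of that comparison is given as a description, with no test. The mice were C57BL/6 with active EAE (experimental autoimmune encephalomyelitis), in which T cells attack myelin, and cells were taken at day 14. Control mice (Ctrl) carried Foxp3Cre-ERT2, and knockout mice (icKO) carried Foxp3Cre-ERT2 x Tnfrsf1bFlox/Flox. Both genotypes received tamoxifen from day 7 to day 14, and the Cre is driven by Foxp3, so it is directed to Treg cells and not to the conventional CD4 T cells (Tconv) of the same mice. Purified CD4+Foxp3+ Treg and Tconv populations came from CNS or draining lymph node (dLN), which gave 8 groups of 3 libraries, except CNS Tconv with 4 per genotype, 26 in all. Replicates are read as separate mice, as their titles number mice.

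CD8 is the coreceptor of T cells that recognise MHC class I. Its alpha and beta chains are encoded by Cd8a and Cd8b1, and a dimer of alpha chains alone occurs on some dendritic cells and innate-like lymphocytes. Cytotoxic lymphocytes store perforin (Prf1), which forms pores in a target membrane, and the proteases granzyme A (Gzma) and granzyme B (Gzmb) in granules whose membranes also hold NKG7. Klrd1 encodes CD94, which pairs with NKG2 receptors such as the product of Klrc1, and Klrk1 encodes NKG2D, which senses stress-induced ligands. Eomes is a T-box transcription factor of NK cells and cytotoxic T cells. CD4 T cells, Treg cells among them, can also make granzymes, so none of the granule genes by itself names a cell.

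On GRCm38 (mm10), in the GENCODE annotation, Cd8b1 (chr6:71322788-71337494) and Cd8a (chr6:71373427-71379173) lie on the same strand with 35.9 kb between them. Klrd1 (chr6:129591782-129598775, plus strand) and Klrk1 (chr6:129610323-129623864, minus strand) lie in the NK receptor cluster of the same chromosome, 11.5 kb apart. The other members are Nkg7 (chr7:43437073-43438249), Eomes (chr9:118478212-118486132), Prf1 (chr10:61297833-61304680), Gzma (chr13:113093825-113100981) and Gzmb (chr14:56258838-56262260). Eomes is overlapped by an antisense gene, Gm33460, and the library kit keeps no strand, so reads of these genes cannot be told apart. Gzmb and the Klr genes have close relatives, among which RSEM divides shared reads by estimate.

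Upstream sequence was matched for 7 members from RefSeq promoters of GRCm38.p6, all except Cd8b1 and Klrd1. The start is the one RefSeq gives, which can differ from the edge of the GENCODE gene above, as it does for Gzmb, Nkg7, Eomes and Prf1. In the 200 bases from 210 to 11 bases before it, the RUNX core TGTGGT or its reverse complement ACCACA occurred in Gzma, Gzmb, Klrk1, Nkg7 and Prf1, 5 of 7, against 11.4% of 32851 promoter windows of that length. The T-box core GGTGTG or its reverse complement CACACC occurred in none of the 7, against 13.4% of all windows. Both cores share the letters GGT, so 1 stretch can hold both. The matches are descriptions of letters, not of binding. The windows of Prf1, Gzmb and Klrk1 are shown, each 5′ to 3′ on the gene's strand with the RUNX core in capitals, because Prf1 and Klrk1 moved opposite to Gzmb between the lymph node populations below. They lie at chr10:61297626-61297825 (plus strand), chr14:56262345-56262544 (minus strand) and chr6:129623875-129624074 (minus strand).
Prf1: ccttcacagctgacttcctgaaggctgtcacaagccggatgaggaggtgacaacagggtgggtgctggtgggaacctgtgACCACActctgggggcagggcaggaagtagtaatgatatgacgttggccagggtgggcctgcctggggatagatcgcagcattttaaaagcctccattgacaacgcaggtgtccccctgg
Gzmb: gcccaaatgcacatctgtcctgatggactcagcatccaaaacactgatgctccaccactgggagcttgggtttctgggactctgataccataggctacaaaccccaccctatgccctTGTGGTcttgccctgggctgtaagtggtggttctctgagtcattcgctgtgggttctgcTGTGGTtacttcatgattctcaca
Klrk1: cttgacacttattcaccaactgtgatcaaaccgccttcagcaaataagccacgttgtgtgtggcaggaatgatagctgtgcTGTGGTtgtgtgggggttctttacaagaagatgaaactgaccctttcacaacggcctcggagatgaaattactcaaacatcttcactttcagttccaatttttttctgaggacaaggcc

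Library totals were 12.4 to 18.5 M expected counts over 11089 to 14259 genes in 25 libraries. Replicate 3 of the label dLN Tconv icKO had 7.78 M counts over 6005 genes, and its values are left out below unless a 26-library value is named, so that group has n = 2. The file names of 5 of the 8 CNS Tconv libraries disagreed with their labels, and groups follow the labels. Foxp3 was 23.8 to 69.4 CPM (counts scaled to the library's TMM-adjusted total) in Treg and 0.114 to 1.53 CPM in Tconv libraries, and Cd4 was 589 CPM or more in every library. Tnfrsf1b, the targeted gene, averaged 619 CPM in icKO against 795 CPM in Ctrl dLN Treg and 406 against 610 CPM in CNS Treg, so transcript remained. In CNS Tconv, where Cre is not directed, Tnfrsf1b was higher in icKO (343 against 208 CPM, edgeR adjusted p = 0.0091). This gene was not examined without the 5 libraries whose file names disagreed.

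In CNS Treg, from which the members were chosen, all 9 averaged higher in icKO than in Ctrl, with fitted log2 fold changes from 0.53 (Nkg7) to 1.70 (Cd8b1). The icKO libraries lay above the Ctrl libraries without overlap for 5 of the 9, namely Cd8a, Cd8b1, Prf1, Klrd1 and Eomes, where 3.99% of all 13500 genes did so. Nothing is read from that count, since these values chose the members. Levels are library-scaled CPM, in replicate order, unless TPM (which also scales for gene length) is named. More cells of a type and more RNA per cell cannot be told apart in these bulk samples.

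Cd8a was 29.5, 39.6 and 29.7 CPM in the Ctrl and 59.8, 77.8 and 153 CPM in the icKO libraries of CNS Treg, a log2 difference of 1.56. Cd8b1 was 58.1, 63.5 and 59.7 CPM in Ctrl and 132, 212 and 246 CPM in icKO, a difference of 1.70. Both chains were thus higher in every icKO library, and the third icKO library was highest for each. Prf1 was 14.7, 15.4 and 12.1 CPM against 24.9, 32.5 and 43.0 CPM. Eomes was 2.32, 6.36 and 4.0 CPM against 7.45, 10.2 and 11.2 CPM. Klrd1 was 18.3, 12.4 and 18.9 CPM against 29.8, 28.6 and 38.8 CPM. These 3 genes followed the same order as the CD8 chains, with every icKO value above every Ctrl value.

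The remaining 4 members overlapped between the genotypes of CNS Treg. Gzmb was 464, 1287 and 324 CPM in Ctrl and 965, 425 and 2125 CPM in icKO. Gzma was 44.1, 48.6 and 18.1 CPM against 44.9, 61.0 and 173 CPM. Both granzymes had their highest value in the third icKO library and otherwise interleaved. Nkg7 was 464, 455 and 244 CPM against 379, 483 and 821 CPM, and Klrk1 was 38.6, 53.7 and 33.1 CPM against 55.4, 30.9 and 99.9 CPM. The third icKO library was the highest of its group for all 9 members and the highest of the 25 libraries for 5 of them. Without it the log2 differences were 1.06 for Cd8a, 1.51 for Cd8b1, 1.03 for Prf1, 0.82 for Klrd1 and 1.05 for Eomes, but 0.52 for Gzma, 0.15 for Nkg7, 0.05 for Klrk1 and 0.0063 for Gzmb. For the 5 members without overlap a positive difference had to remain, so this is no test of them. With all libraries the differences of the other 4 were 1.33 for Gzma, 0.53 for Nkg7, 0.57 for Klrk1 and 0.76 for Gzmb.

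**Figure D1:**
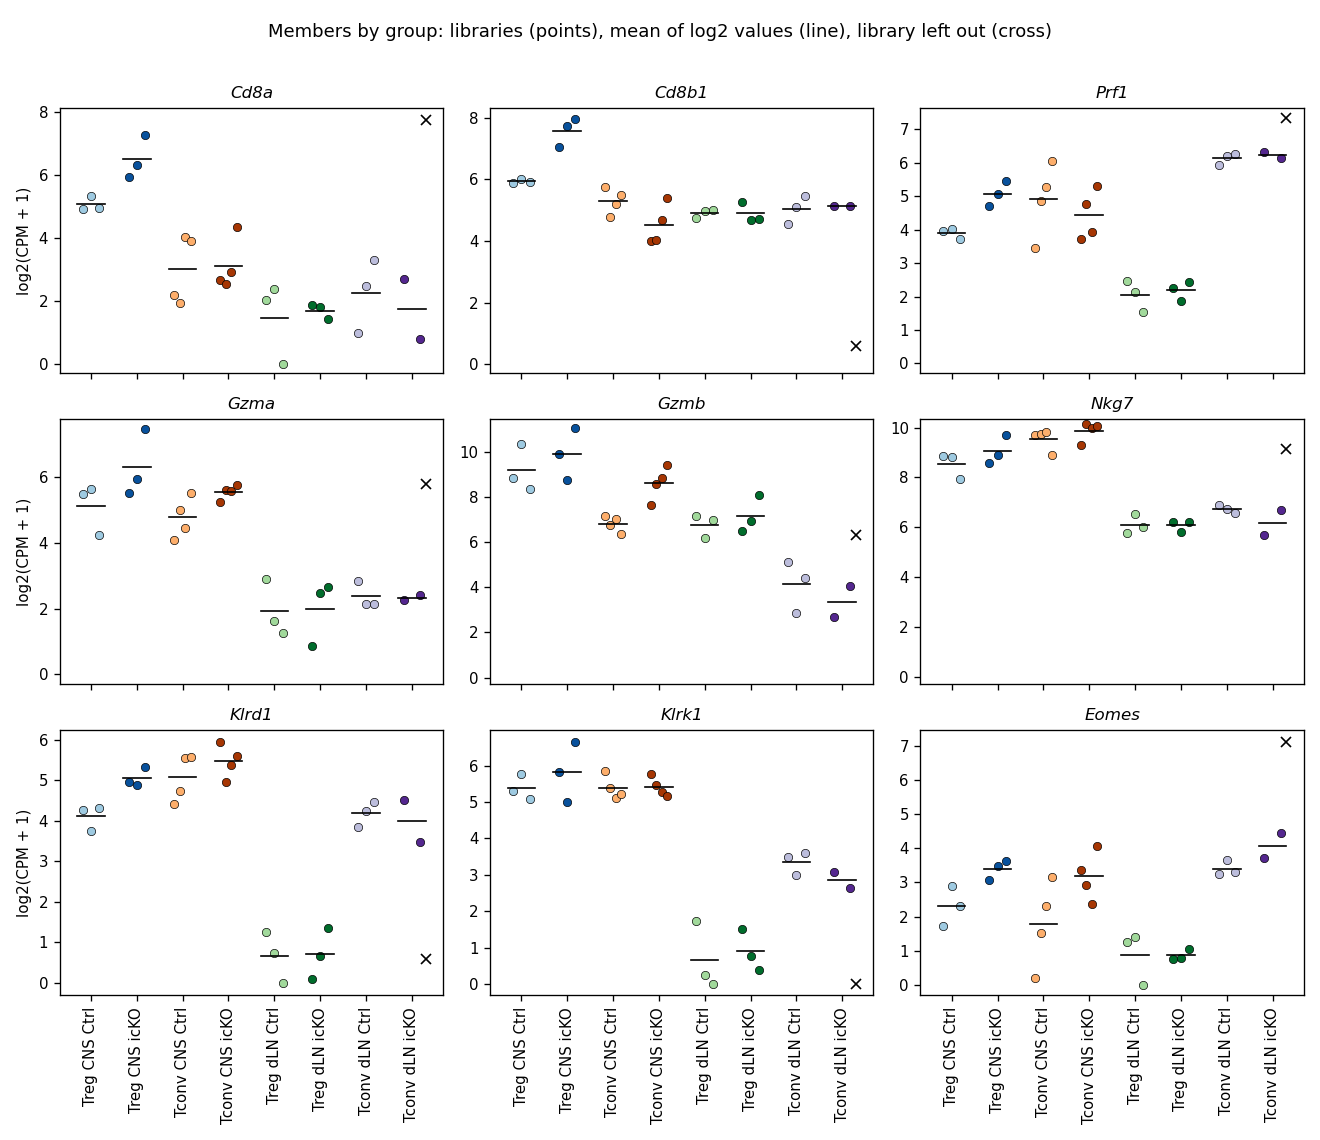
Each panel shows 1 gene, with the groups along the x axis and log2(CPM + 1) on the y axis. Points are libraries, lines are means of the log2 values, and the cross is the library left out. Cd8a and Cd8b1 are highest in CNS Treg icKO, Prf1 and Eomes in dLN Tconv, and Klrd1 and Klrk1 are near 0 in dLN Treg.

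Per length (TPM), Cd8b1 exceeded Cd8a in each of the 25 libraries, and Cd8a was at 0 in 1 of them, a dLN Treg Ctrl library. In CNS Treg the Cd8b1 to Cd8a ratio of TPM was 3.60 to 4.51 in Ctrl and 3.61 to 6.10 in icKO, so the ratio overlapped between genotypes while both chains were higher. In the other populations it ranged from 4.76 in a CNS Tconv icKO library to 102 in a dLN Tconv icKO library, because Cd8a was low. As a share of Cd4 TPM in the same library, Cd8a was 3.79% to 5.18% in CNS Treg Ctrl and 7.60%, 10.7% and 25.7% in icKO, and at most 1.41% in the other 19 libraries. The icKO library at 25.7% also had the lowest Cd4 of the CNS Treg libraries, 267 TPM against 369 to 421 TPM in the others. The library left out differed from all of these, with Cd8a at 94.2 TPM and Cd8b1 at 0.52 TPM.

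**Figure D2:**
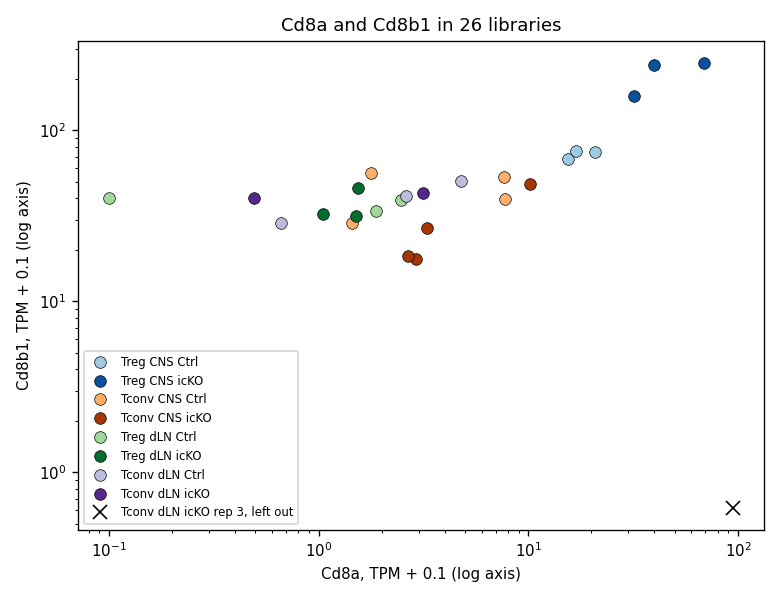
Cd8a (x) and Cd8b1 (y) in TPM plus 0.1, on log axes, 1 point per library. The CNS Treg libraries lie at the upper right, with 15.4 TPM or more of Cd8a and 68.1 TPM or more of Cd8b1, and the cross at the lower right is the library left out.

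Transcripts of other cells stood beside these values in CNS Treg. Markers of monocytes and macrophages (9 genes, Lyz2, Ccr2 and Csf1r the most abundant) summed to 2593 to 3639 CPM in Ctrl and 2282 to 3606 CPM in icKO. Markers of microglia (6 genes, among them Tmem119 and Sparc) summed to 755 to 1019 CPM in Ctrl and 772 to 1004 CPM in icKO. Both lists were far above their levels in CNS Tconv, at most 814 and 85.4 CPM, and overlapped between the genotypes. The cDC1 list, for a dendritic cell type that carries the CD8 alpha dimer in lymphoid organs, summed to 391 to 551 CPM in Ctrl and 298 to 527 CPM in icKO, and the plasmacytoid dendritic cell (pDC) list to 185 to 243 and 197 to 254 CPM. Neutrophil markers summed to 405 to 1097 CPM in Ctrl and 145 to 631 CPM in icKO. Each of these 5 lists overlapped between the genotypes, and the part of such cells in the Cd8a difference was not tested.

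The 9 NK markers summed to 34.7 to 48.1 CPM in Ctrl and 49.6 to 191 CPM in icKO CNS Treg, which did not overlap. Most of that sum was Klrc1, which encodes a partner of CD94 and is also made by T cells, at 32.5, 42.1 and 35.1 CPM in Ctrl and 55.2, 40.8 and 180 CPM in icKO. Without Klrc1 the other 8 summed to 2.17 to 5.99 CPM in Ctrl and 8.78 to 11.2 CPM in icKO, which did not overlap either. Such levels were not particular to CNS Treg icKO. The same sum was 6.37 to 12.4 CPM in dLN Treg icKO and 11.6 to 33.2 CPM over the Tconv groups. Of the 6 NK markers that were fitted, Klrc1 among them, 5 had a positive log2 difference. Their median was 0.84, against -0.0032 over all genes. NK transcripts of this same comparison led to the choice of the members, so nothing is read from these NK values. Ncr1, which encodes the NK receptor NKp46, was at 0 in 4 of the 6 libraries and at most 0.693 CPM, and Klra4 was at 0 in all 25. Of the gamma-delta T cell list only Sox13 was measured, at most 1.89 CPM. B cell markers summed to 26.5 to 76.4 and 24.7 to 119 CPM, mast cell and basophil markers to at most 9.97 CPM, and the oligodendrocyte list to 163 to 196 and 172 to 225 CPM. The pan-T list (Lck, Cd3e and Cd3g the most abundant) summed to 3428 to 3965 and 3891 to 4821 CPM. What part cells other than Treg, CD8 T cells included, had in the members' difference was not tested, and apart from Cd8a and Cd8b1 no list defines CD8 T cells here.

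The question whether the members also differed by genotype elsewhere can be tested, since those libraries were not used to choose them. None of the 9 passed in dLN Treg, CNS Tconv or dLN Tconv, where edgeR called 0%, 3.10% and 0% of the 13500 genes at adjusted p under 0.05. At an unadjusted p under 0.05 the counts over all genes were 146, 2437 and 197. In dLN Treg the 9 differences lay between -0.28 and 0.51, all with overlapping libraries (4.77% of all genes were higher and 3.99% lower without overlap), and the smallest unadjusted edgeR p was 0.413. Cd8b1 in particular was 25.8, 30.2 and 31.2 CPM in Ctrl and 37.5, 24.7 and 25.3 CPM in icKO dLN Treg, a log2 difference of 0.00395 ± 0.32 (SE, n = 3 each). In dLN Tconv they lay between -0.94 and 0.77, with a smallest unadjusted edgeR p of 0.188, and only Eomes had no overlap (8.42, 11.6 and 8.85 CPM against 12.1 and 20.7 CPM), as did 8.10% of all genes in that direction.

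In CNS Tconv, Gzmb was 144, 107, 127 and 80.4 CPM in Ctrl and 196, 379, 454 and 687 CPM in icKO. Every icKO value was above every Ctrl value, as for 4.86% of all genes, with a log2 difference of 1.90 ± 0.54 (SE, n = 4 each) and an edgeR adjusted p of 0.0577, short of the threshold. Over the alternatives its adjusted p ran from 0.0207 to 0.817. It passed with DESeq2 (adjusted p = 0.0207) and with edgeR on these groups alone (0.0296), and was 0.485 with all 26 libraries. Without the 5 libraries whose file names disagree, which leaves 2 Ctrl and 1 icKO, the difference was 0.66 with an edgeR adjusted p of 0.817. Cd8b1 went the other way, at 53.2, 26.6, 35.8 and 43.6 CPM in Ctrl and 14.9, 15.4, 24.3 and 40.8 CPM in icKO, a log2 difference of -0.74 ± 0.28 (edgeR adjusted p = 0.164). Without the fourth icKO library this was -1.12 with an edgeR adjusted p of 0.0376. Cd8a was alike in both, at 3.54, 2.79, 15.4 and 14.0 CPM against 5.31, 4.83, 6.56 and 19.3 CPM, and Prf1 was 9.96, 27.7, 37.4 and 65.6 CPM against 12.2, 26.3, 14.1 and 38.2 CPM. Eomes was 0.148, 1.90, 3.93 and 7.87 CPM against 9.37, 6.62, 4.12 and 15.8 CPM, a difference of 1.38 ± 0.73 (edgeR adjusted p = 0.328).

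The difference between these differences was tested as well, after the values had been seen. The genotype difference in CNS Tconv minus that in dLN Tconv was 2.84 ± 0.94 for Gzmb (SE, edgeR adjusted p = 0.384), the member with the smallest p. No member and none of the 13500 genes passed, nor did any for dLN Treg minus dLN Tconv.

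Other genes of the granule pathway moved in CNS Tconv by genotype. Of 14 tested genes of the granule list, 2 rose in icKO and none fell, Ctsw, which encodes cathepsin W (237 to 488 CPM, edgeR adjusted p = 0.0412), and Stx11, which encodes a syntaxin of granule release (61.0 to 99.5 CPM, edgeR adjusted p = 0.0457). Of 5 granzyme inhibitors, Serpinb9, which encodes the inhibitor of granzyme B, rose from 113 to 272 CPM (log2 fold change 1.26 ± 0.31, edgeR adjusted p = 0.0286). Of all genes 3.10% were called. None of the 12 genes of the list of type 1 drivers, 7 receptor partners or 4 genes of the opposite CD4 lineage passed. Ifng of the driver list was 27.4, 57.4, 31.0 and 105 CPM in Ctrl and 205, 253, 783 and 585 CPM in icKO, without overlap (edgeR adjusted p = 0.0592). Klrc1 was 71.5, 62.1, 77.6 and 107 CPM against 251, 156, 200 and 237 CPM, also without overlap (edgeR adjusted p = 0.102). Markers of other cells moved beside these genes. The macrophage list summed to 292 to 517 CPM in Ctrl and 605 to 814 CPM in icKO without overlap. Most of that sum was Ccr2, which was called higher (334 to 626 CPM, edgeR adjusted p = 0.0335). No other gene of that list was called, and 8 of the 9 had a positive log2 fold change. Of the Treg list Il2ra (72.2 to 165 CPM, edgeR adjusted p = 0.00609) and Ikzf4 (7.46 to 24.9 CPM, 0.00463) were called higher, and of the neutrophil list Csf3r, at 0 in all 4 Ctrl libraries and a mean of 1.25 CPM in icKO. Their part in the differences of the members and the granule genes was not tested. None of the genes called here passed with all 26 libraries, where 0.0919% of genes were called. Without the 5 libraries whose file names disagree, single genes were examined for the members only. The calls of other genes here, and between the tissues of Tconv below, therefore lack that check.

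Between tissues, Tconv cells of the CNS held more of 4 members than those of the dLN. In Ctrl mice Nkg7, Gzma, Gzmb and Klrk1 rose and none fell, where 8.90% of all genes were called, 5.97% higher and 2.93% lower. Nkg7 was 838, 843, 895 and 473 CPM in the CNS and 119, 105 and 94.7 CPM in the dLN, a log2 fold change of 2.84 ± 0.33 (SE, n = 4 and 3, edgeR adjusted p = 1.76e-05). Gzma was 16.2, 30.9, 21.1 and 45.1 CPM against 6.10, 3.43 and 3.45 CPM (2.70 ± 0.59, edgeR adjusted p = 0.00642). Gzmb was 33.5, 6.31 and 20.0 CPM in the dLN (2.52 ± 0.63, edgeR adjusted p = 0.0156). Klrk1 was 56.4, 41.0, 33.8 and 36.3 CPM against 10.3, 6.93 and 11.2 CPM (2.14 ± 0.56, edgeR adjusted p = 0.021). For each of these every CNS library was above every dLN library, as for 9.55% of all genes. Prf1 did not follow its granule partners. It was 60.1, 73.3 and 75.6 CPM in the dLN, above 3 of the 4 CNS libraries, with a difference of -0.99 ± 0.42 (edgeR adjusted p = 0.147). Without the fourth CNS Ctrl library it was -1.48 with an edgeR adjusted p of 0.0166, and it also passed with limma (-1.02, adjusted p = 0.023). Eomes was lower in the CNS without overlap, as were 9.64% of genes (-1.48 ± 0.77, edgeR adjusted p = 0.241), and Cd8a, Cd8b1 and Klrd1 overlapped. Klrd1 passed with limma (1.07, adjusted p = 0.0411). The count of 4 fell to 1 without the second dLN Ctrl library and to 2 without the third, and Klrk1 lost its call without the first (edgeR adjusted p = 0.0669). With all 26 libraries only Nkg7 passed, where 1.10% of genes did. Without the 5 libraries whose file names disagree, Prf1 (-1.88, edgeR adjusted p = 0.00391) and Eomes (-3.19, 0.0343) passed as well.

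In icKO mice Nkg7, Gzma, Gzmb and Klrk1 were again higher in CNS than in dLN Tconv, and Prf1 was lower, where 14.1% of genes were called, 7.81% higher and 6.30% lower. Gzmb was 5.45 and 15.4 CPM in the dLN, against 196 to 687 CPM in the CNS (5.36 ± 0.88, n = 4 and 2, edgeR adjusted p = 0.000232). Nkg7 was 50.5 and 101 CPM against 627, 1122, 1017 and 1082 CPM (3.67 ± 0.41, edgeR adjusted p = 3.19e-06). The log2 fold change was 3.51 ± 0.73 for Gzma (edgeR adjusted p = 0.00208) and 2.75 ± 0.69 for Klrk1 (edgeR adjusted p = 0.00925). Prf1 was 79.7 and 69.4 CPM in the dLN and 12.2 to 38.2 CPM in the CNS (-1.72 ± 0.46, edgeR adjusted p = 0.0151). Klrd1 was 60.9, 29.8, 40.4 and 47.3 CPM against 21.9 and 10.2 CPM, without overlap, and did not pass (1.48 ± 0.61, edgeR adjusted p = 0.118), but it did with DESeq2 (adjusted p = 0.043) and limma (0.00387). Without overlap were 20.1% of all genes higher and 21.8% lower, with only 2 dLN libraries. With all 26 libraries 4 of the 5 passed, all except Gzma, where 9.24% of genes did. The count was 2 without the first dLN icKO library (Prf1, Gzma and Klrk1 lost), 3 without the second (Prf1 and Klrk1 lost) and 3 without the 5 libraries whose file names disagree (Gzma and Klrk1 lost).

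Genes around the members also differed between the tissues. Of the 12 drivers, 7 rose in the CNS in Ctrl Tconv and none fell, among them Tbx21, the T-box factor of type 1 T cells (34.1 to 144 CPM), Il2rb, the receptor chain for IL-2 and IL-15 (376 to 1157 CPM), Id2 and Ccl5 (22.3 to 248 CPM), with Runx3, Il12rb2 and Stat4. The list's median log2 fold change was 1.38, against -0.00905 over all genes. In icKO mice 9 of 12 rose, the same 7 with Prdm1 and Ifng, and the median was 2.06. Of 5 granzyme inhibitors, Serpinb9, Serpinb6b, Serpinb1a and Serpina3g rose in both genotypes. Of the 14 granule genes, Srgn, Ctsw and Fasl rose in Ctrl, and those 3 with Gzmm and Stx11 in icKO, with no fall in either. Of 7 receptor partners Klrc1, H2-T23 and B2m rose in Ctrl, and Klrc1 in icKO. Cd4 and Gata3 of the opposite lineage rose in Ctrl, and Gata3 in icKO. Markers of other cells moved too, since Tmem119, Gpr34 and Sparc of the 6 microglia markers rose in Ctrl (in icKO, Tmem119 and Sparc), and the macrophage list summed to 292 to 517 CPM in CNS against 155 to 169 CPM in dLN Ctrl Tconv, with Ccr2 called higher and Lyz2 called lower in both genotypes and Fcgr1 higher in icKO. Pacsin1 of the pDC list was lower in both, and Xcr1 of the cDC1 list and Klre1 of the NK list higher in icKO. Of the Treg list Il2ra and Tnfrsf18 were higher in both and Ctla4 and Ikzf4 in icKO. Their part in the members' change was not tested.

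Between the cell types of the dLN the members split. Relative to Tconv cells, Treg cells of Ctrl mice had more Gzmb and less Prf1, Klrd1, Klrk1 and Eomes, where 11.5% of genes were called, 6.04% higher and 5.48% lower. Gzmb was 141, 71.7 and 126 CPM in Treg and 33.5, 6.31 and 20.0 CPM in Tconv (2.5 ± 0.65, SE, n = 3 each, edgeR adjusted p = 0.0146). Prf1 was 4.49, 3.43 and 1.91 CPM in Treg and 60.1, 73.3 and 75.6 CPM in Tconv (-4.40 ± 0.53, edgeR adjusted p = 9.45e-06). Perforin transcript was therefore low where granzyme B transcript was high. Klrd1 was 1.37, 0.660 and 0 CPM in Treg and 13.4, 17.8 and 21.2 CPM in Tconv (-4.62 ± 0.68, edgeR adjusted p = 8e-05). Klrk1 was 2.31, 0.198 and 0 CPM against 10.3, 6.93 and 11.2 CPM (-3.43 ± 0.69, edgeR adjusted p = 0.0018), and Eomes 1.37, 1.65 and 0 CPM against 8.42, 11.6 and 8.85 CPM (-3.23 ± 0.92, edgeR adjusted p = 0.0244). For all 5 the libraries of the cell types did not overlap, as for 19.3% of genes higher and 19.0% lower. Nkg7 was also lower in Treg without overlap, at 53.9, 91.6 and 63.4 CPM against 119, 105 and 94.7 CPM, but did not pass (-0.61, edgeR adjusted p = 0.245), and Cd8a, Cd8b1 and Gzma overlapped. Nkg7 passed when just these groups were fitted (edgeR adjusted p = 0.0368). With all 26 libraries, Prf1 and Klrd1 passed and the count fell to 2, where 1.80% of genes passed, and it was 3 without the second dLN Tconv Ctrl library. Eomes also lost its call without the first or the third dLN Treg Ctrl library (edgeR adjusted p = 0.065 and 0.0768), and Gzmb without the third dLN Tconv Ctrl library (0.0554).

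The same 5 genes moved the same way in icKO mice, where 9.91% of genes were called, 5.44% higher and 4.47% lower. Gzmb was 88.1, 120 and 275 CPM in Treg against 5.45 and 15.4 CPM in Tconv (3.95 ± 0.83, n = 3 and 2, edgeR adjusted p = 0.00324). Prf1 was 3.73, 2.63 and 4.43 CPM against 79.7 and 69.4 CPM (-4.37 ± 0.55, edgeR adjusted p = 2e-05). The fold changes of Klrd1, Klrk1 and Eomes were -4.42 ± 0.70, -2.71 ± 0.72 and -4.28 ± 1.0 on the log2 scale, with edgeR adjusted p of 0.000243, 0.0183 and 0.00699. With all 26 libraries Prf1, Klrd1 and Eomes passed, a count of 3, where 3.95% of genes did. Without overlap were 26% of all genes higher and 26.1% lower. Without the first dLN Tconv icKO library the count was also 3, with Gzmb and Klrk1 lost (0.0948 and 0.171). Klrk1 also lost its call without the second or the third dLN Treg icKO library (0.0836 and 0.0929), and Eomes without the second dLN Tconv icKO library (0.0551).

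**Figure D3:**
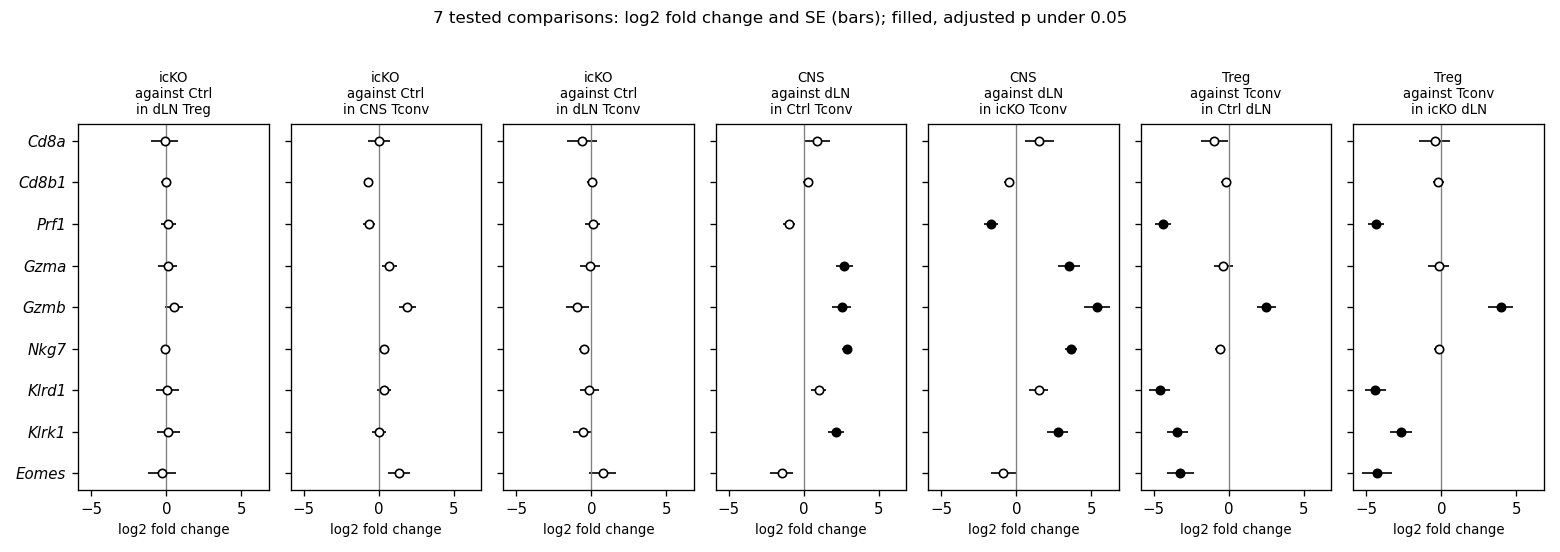
Each panel is 1 of the 7 comparisons without a CNS Treg group. The x axis is the log2 fold change, bars are its SE, and filled points have an edgeR adjusted p under 0.05. Genotype panels hold no filled point, tissue panels show Gzma, Gzmb, Nkg7 and Klrk1 to the right, and cell type panels show Gzmb to the right with Prf1, Klrd1, Klrk1 and Eomes to the left.

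Marker lists of other cells differed between these cell types in both directions. The sum of the 7 B cell markers was higher in Treg, at 26.4 to 36.2 CPM against 2.06 to 6.0 CPM in Ctrl. In icKO it was 31.0 to 33.3 against 3.04 to 4.95 CPM. Only Cd79b of the 6 tested was called, higher in both genotypes. In Ctrl 3 of these 6 had a positive log2 fold change (median 0.0243), and in icKO all 6 did (median 2.99). Macrophage markers summed to 183 to 782 CPM in Treg and 155 to 169 CPM in Tconv of Ctrl mice, and to 458 to 684 and 137 to 152 CPM in icKO, with Lyz2 called higher in Ctrl and Ccr2 in icKO. The 7 pDC markers summed to 33.0 to 56.9 CPM in Treg and 71.7 to 302 CPM in Tconv of Ctrl mice, and 6 of them were called lower, Siglech, Ccr9, Cox6a2, Klk1, Ly6d and Tcf4. In icKO mice 5 were, these without Siglech. Of 6 tested NK markers, 4 were called lower in Ctrl (Ncr1, Klre1, Klri2 and Klrc1) and 2 in icKO (Ncr1 and Klri2). Ncr1 was at 0 in all 6 dLN Treg libraries and 3.92, 2.40 and 1.65 CPM in Tconv Ctrl. Olfml3 of the microglia list and Mbp of the oligodendrocyte list were called lower in both genotypes. All 6 genes of the Treg list were called higher in both, Foxp3, Il2ra, Ctla4, Ikzf2, Tnfrsf18 and Ikzf4. Of the pan-T list Cd3e, Lck and Lat were called lower in both and Cd3d in Ctrl. Cd4 and Cd40lg were called lower and Gata3 higher in both. What part any of these cells had in the differences of the members was not tested. Granule genes split like the members. In Ctrl Treg 3 of 14 were higher than in Tconv (Srgn, Cst7 and Stx11) and 4 lower (Gzmk, Ctsw, Fasl and Rab27a), and in icKO 3 were higher, the same genes, and 2 lower (Gzmk and Ctsw). Among granzyme inhibitors Serpina3g was higher and Serpinb1a lower in both genotypes. Il2rb and Prdm1 were higher in both and Id2 lower in Ctrl, while Cd247 was lower in both and Hcst and Klrc1 in Ctrl.

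Levels in CNS Treg against other groups are described without a test. All 9 members were higher in CNS than in dLN Treg without overlap in both genotypes, where 22.1% (Ctrl) and 20.9% (icKO) of all genes were, and 20.2% and 19.7% were lower. The log2 differences were 1.06 (Cd8b1) to 5.57 (Klrk1) in Ctrl and 2.75 (Cd8b1) to 6.00 (Klrk1) in icKO. Without the first dLN Treg Ctrl library, 1 of the others being at 0, the Ctrl value of Klrk1 was 8.51. Klrk1 was at most 2.31 CPM in the 6 dLN Treg libraries and at least 30.9 CPM in the 6 CNS Treg libraries. Markers of other cells were higher in the CNS too. Over both genotypes the dLN Treg libraries held 183 to 782 CPM of macrophage, 8.03 to 20.8 CPM of microglia, 0.641 to 10.3 CPM of neutrophil and 49.1 to 74.5 CPM of cDC1 markers, all below every CNS Treg library. Median log2 differences in Ctrl were 4.50 for the macrophage, 7.43 for the neutrophil and 2.97 for the cDC1 list, against 2.61 for the members and 0.0185 for all genes. For the NK, pDC and B cell lists they were 5.17, 3.87 and 3.86, and for the pan-T and Treg lists 0.051 and -0.23. In Ctrl, NK markers summed to 3.29 to 8.45 CPM in dLN Treg and 34.7 to 48.1 CPM in CNS Treg. That difference lay in Klrc1. Without it the other 8 summed to 1.61 to 7.92 CPM in dLN Treg and 2.17 to 5.99 CPM in CNS Treg, which overlapped. The pDC sums were 33.0 to 56.9 and 185 to 243 CPM. The part of other cells in the members' difference was not tested. Against CNS Tconv of Ctrl mice, Cd8a, Cd8b1 and Gzmb were higher in CNS Treg and Nkg7 and Klrd1 lower without overlap, where 13.8% and 8.53% of genes were. In icKO mice only Cd8a and Cd8b1 had no overlap, both higher in Treg, where 12.1% of genes were and 8.69% were lower.

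Ordered by group mean, the members fell into different patterns. Cd8a and Cd8b1 were highest in CNS Treg icKO, then CNS Treg Ctrl, and those 2 groups did not overlap each other or the group that followed. The other 5 pairs of neighbours in each order overlapped. Gzma, Gzmb and Klrk1 were also highest in CNS Treg icKO, but overlapped the group after it. Nkg7 and Klrd1 were highest in CNS Tconv icKO, followed by CNS Tconv Ctrl, which overlapped. Prf1 and Eomes were highest in dLN Tconv icKO, followed by dLN Tconv Ctrl. The lowest mean was in a dLN Treg group for every member except Gzmb, for which it was dLN Tconv icKO (10.4 CPM), and Cd8b1, for which it was CNS Tconv icKO (23.9 CPM) after dLN Treg Ctrl (29.1 CPM), which overlapped.

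Across the 25 libraries, Prf1 and Eomes followed each other (Spearman rho 0.84), as did Gzma and Gzmb (0.79) and Nkg7 and Klrd1 (0.77), while Prf1 and Gzmb did not (-0.27). These coefficients describe libraries that share tissues and cell types, and carry no test. Of 9754 genes with a mean of at least 5 CPM, those closest to Cd8a were Csf2rb2 (0.92), Cybb, Ly86, Grn and Pik3ap1, several of which are abundant in myeloid cells. Those closest to Gzmb were Socs2 (0.94), Mxd1, Agpat4, Gbp7 and Crlf2. Those closest to Klrd1 were Klrc1 (0.91), Dock5, Ncald, Rnf138 and Cd53.

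In Tconv libraries, where Cd8a was low, it varied with markers of dendritic cells. In CNS Tconv Ctrl, Siglech, a pDC receptor, was 14.8, 0.836, 151 and 196 CPM in the libraries with 3.54, 2.79, 15.4 and 14.0 CPM of Cd8a. In dLN Tconv Ctrl it was 3.34, 66.8 and 82.7 CPM beside 0.964, 4.6 and 8.93 CPM of Cd8a. In both Ctrl groups the library with the least Siglech had the least Cd8a. The library with the most Siglech had the most Cd8a in dLN Tconv Ctrl but not in CNS Tconv Ctrl. In CNS Tconv icKO the order differed, with Siglech at 35.7, 33.1, 86.0 and 49.8 CPM beside 5.31, 4.83, 6.56 and 19.3 CPM of Cd8a. Over the 13 Tconv libraries rho between Cd8a and the summed pDC list was 0.77, and between Cd8a and the cDC1 list it was 0.83. For Cd8b1 it was 0.40 and 0.13, and for Klrd1 0.35 and 0.77. Over the 12 Treg libraries, in the same order of lists, rho was 0.84 and 0.89 for Cd8a and 0.78 and 0.75 for Cd8b1. The other members ranged there from 0.57 to 0.80 with the pDC list and from 0.71 to 0.92 with the cDC1 list. Lists of other cells went along with Cd8a too. Its rho with the NK, macrophage and pan-T lists was 0.48, 0.52 and -0.099 over Tconv libraries. Over Treg libraries it was 0.87, 0.78 and 0.39. Both kinds of dendritic cell can carry CD8 alpha. CNS Treg libraries had pDC sums of 185 to 254 CPM, against 29.2 to 612 CPM in Tconv, and cDC1 sums of 298 to 551 CPM, against 42.2 to 331 CPM in Tconv. What part dendritic or other cells had in Cd8a was not tested in any group.

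**Figure D4:**
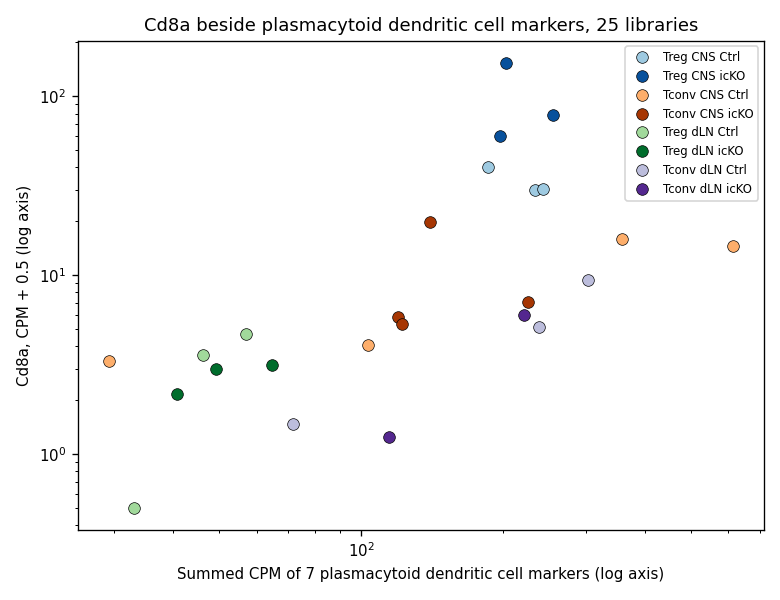
The x axis is the summed CPM of 7 pDC markers and the y axis Cd8a CPM plus 0.5, both on log axes, with 1 point per library of 25. Tconv points scatter upward to the right (rho 0.77 over 13 libraries), and the 6 CNS Treg points, at 185 to 254 CPM of pDC markers, have more Cd8a.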

How the data were processed

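Polyadenylated RNA of purified cells was amplified with SMART-Seq v4 and Nextera, per the labels' protocols. Per the submitters' processing notes, FastQC, Trimmomatic, STAR 2.5.3a and RSEM 1.2.28 were used with mm10. The authors deposited RSEM expected counts, TPM and FPKM per gene symbol. TPM served for ratios between genes, and the deposited FPKM were not used.

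The members and lists were chosen with earlier results of these data known. Expected counts were rounded and fitted with edgeR 4.0.16 (R 4.3.3) quasi-likelihood models of 8 group means, after filterByExpr (13500 genes with 25 libraries, 13054 with 26) and TMM scaling. A gene was called at a Benjamini-Hochberg adjusted p under 0.05, over all genes. SE is the log2 fold change over the square root of F. CPM used the TMM-scaled totals. The common dispersion was 0.142 with 25 and 0.364 with 26 libraries. The library left out had a highest rank correlation of 0.70 with any other, against 0.94 or more for the rest. Tests ran on 7 comparisons, and 5 with CNS Treg were only described. Interaction tests were added after seeing the values. The 17 lists covered the granule pathway, its inhibitors, receptor partners, drivers and markers of other cells, and 5 listed genes were not in the tables. Named were the members, Foxp3, Cd4, Tnfrsf1b, up to 3 abundant members of each list, list members that were called, and the 5 genes most like Cd8a, Gzmb and Klrd1. Ifng, Ncr1, Klra4 and Klrc1 values by library were added after they were seen. Scripts were tested on simulated data. Alternatives were all 26 libraries, DESeq2 1.42.0 size factors or test, no filter on low counts, limma 3.58.1 with voom and weights per library, a block for replicate number, a fit of just the groups in a comparison, and fits that drop single libraries or the 5 with discordant file names in CNS Tconv. One listed marker is not reported here, and the microglia sums leave it out.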

Additional observations from a re-analysis of the deposited data

Results flagged for a closer look

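Among 18 sets of 4 libraries (9 members in the CNS Tconv groups), 2 held a library far from the other 3, and chance flags about 1 in 20 such sets. Cd8a was 19.3 CPM in the fourth CNS Tconv icKO library, against 4.83 to 6.56 CPM in the others. Nkg7 was 473 CPM in the fourth CNS Tconv Ctrl library, against 838 to 895 CPM in the others.

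The library labelled dLN Tconv icKO replicate 3, which entered only the values given with all 26 libraries, held 6 members above every dLN Tconv Ctrl library, on CPM by library total. Cd8a was 212 CPM there against at most 9.13 CPM, and Eomes 138 against at most 11.9 CPM. Prf1 was 163 against 77.3 CPM, Gzma 54.7 against 6.40 CPM, Gzmb 79.2 against 35.1 CPM, and Nkg7 563 against 125 CPM. Cd8b1 and Klrd1 were 0.51 CPM each and Klrk1 was at 0. With 6005 genes detected in this library, these are values of 1 library and not of a group.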

How the results depend on the processing

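DESeq2 size factors and no filter on low counts kept every result on its side of the threshold. Counts of members called moved as follows. With all 26 libraries they were 1 for CNS against dLN in Ctrl Tconv (4 in 25), 2 for Treg against Tconv in Ctrl dLN (5) and 3 in icKO dLN (5). For CNS Tconv by genotype the count of 0 became 1 (Gzmb) with DESeq2 and with the compared groups alone, and for CNS against dLN in icKO Tconv the 5 became 3 without the 5 libraries whose file names disagree. Leaving out each library gave 1 to 5 for CNS against dLN in Ctrl Tconv, 2 to 5 in icKO, 3 to 5 for Treg against Tconv in Ctrl and in icKO dLN, 0 to 1 for CNS Tconv by genotype, and 0 for dLN Treg and dLN Tconv by genotype. Where 1 library is left in a group it is assumed to vary like the others. All genes called by genotype in CNS Tconv were 419 in 25 libraries, 12 with 26, 904 with DESeq2, 102 with the groups alone and 158 without the 5 libraries.

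Log2 differences that changed sign were all of members not called, and the cause was not tested beyond the libraries that differ. With all 26 libraries, icKO against Ctrl in dLN Tconv became 3.74 for Cd8a, -0.53 for Cd8b1, 2.11 for Gzma, 0.60 for Gzmb and 1.03 for Nkg7. CNS against dLN in icKO Tconv became -2.86 for Cd8a and 0.048 for Cd8b1, Treg against Tconv in icKO dLN 0.39 for Cd8b1, and Cd8a in CNS Tconv by genotype -0.0090. That last value was also -0.0022 with DESeq2, -0.0067 with the groups alone and -0.036 with the replicate block. Without the 5 libraries, Nkg7 in CNS Tconv by genotype was -0.41 and Cd8a of CNS against dLN in Ctrl Tconv -0.61. With limma, dLN Treg by genotype became 0.24 for Cd8a, -0.0089 for Cd8b1, -0.087 for Prf1, -0.23 for Gzma and -0.31 for Klrd1, and Cd8a of Treg against Tconv in icKO dLN became 0.091. With the groups alone Cd8b1 in dLN Treg was -0.00066.
Leaving out each library in turn gave ranges that crossed 0. For Treg against Tconv in icKO dLN they were -1.22 to 1.64 for Cd8a, -0.54 to 0.33 for Gzma and -0.55 to 0.45 for Nkg7. For icKO against Ctrl in CNS Tconv they were -0.67 to 0.42 for Cd8a and -0.11 to 0.21 for Klrk1. For icKO against Ctrl in dLN Tconv they were -2.68 to 0.18 for Cd8a, -0.17 to 0.28 for Cd8b1, -0.24 to 0.23 for Gzma, -0.78 to 0.32 for Klrd1 and -0.0047 to 0.19 for Prf1. For icKO against Ctrl in dLN Treg they were -0.66 to 0.53 for Cd8a, -0.19 to 0.12 for Cd8b1, -0.84 to 0.25 for Eomes, -0.29 to 1.05 for Gzma, -0.092 to 0.83 for Gzmb, -1.03 to 1.10 for Klrd1, -0.71 to 3.11 for Klrk1, -0.18 to 0.22 for Nkg7 and -0.13 to 0.44 for Prf1. For Treg against Tconv in Ctrl dLN they were -0.38 to 0.058 for Cd8b1 and -1.29 to 0.024 for Gzma.

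Replicate numbers did not pair samples: deviations of same-numbered libraries correlated at -0.122 to 0.103. With the replicate block, Prf1 of CNS against dLN in Ctrl Tconv passed (-1.48, edgeR adjusted p = 0.0122), and no other member's call changed. The depth of single libraries limits genes near 0, such as Klrd1 and Klrk1 in dLN Treg.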
